A study of Mus musculus with 7 samples.

Results

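The matrix metalloproteinases (MMPs) and their tissue inhibitors (TIMPs) were followed here as 10 genes, 7 Mmp and 3 Timp, chosen by name from the 23337 genes in the tables. All 10 were listed in all 7 libraries and all 10 passed the filter on low values, a mean of at least 1 TPM over the libraries. Timp3 passed it only through its level in untreated cells. The tables hold 27 Mmp and Timp genes, and the 17 others are given as related genes. The 10 genes and the lists of related genes were chosen with earlier results of these data known. RNA was sequenced from bone marrow-derived macrophages, which are macrophages grown from marrow, of male mice 6 to 8 weeks old. All cells had 7 days of M-CSF, a macrophage growth factor, at 25 ng/ml. The groups were Tgm2 knockout cells given LPS (KO LPS, n = 2), wild-type cells given LPS (WT LPS, n = 2), Tgm2 knockout cells left unstimulated (KO M0, n = 1) and wild-type cells left unstimulated (WT M0, n = 2). LPS, the bacterial cell wall lipopolysaccharide, was given at 10 ng/ml for 6 hours. The product of Tgm2, transglutaminase 2, joins proteins by crosslinks, matrix proteins among them. The labels give neither the allele nor the strain, and do not say whether replicates are separate mice or dishes. The p-values therefore rest on a spread that may be technical.

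MMPs are zinc proteases that cleave matrix proteins and many cell surface and secreted proteins. They are made as inactive precursors whose propeptide covers the active site until it is removed. TIMPs bind the active site and block it, and in macrophages the balance of the protease and inhibitor genes is a common readout of matrix remodelling.

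Levels are TPM, a transcript abundance corrected for gene length that sums to 1000000 in each library, so that different genes can be set side by side. The depth of the libraries is unknown. Fold changes are differences of log2(TPM + 1) fitted with limma, which understates the change of low genes, and a gene was called at a Benjamini-Hochberg adjusted p under 0.05 over 11096 genes. Tgm2 was 19.4 and 19.2 TPM in KO LPS, against 233 and 199 TPM in WT LPS, and 50.7 TPM in KO M0, against 433 and 368 TPM in WT M0. Xist, the RNA of the inactive X chromosome, was 47.2 and 55.4 TPM in WT LPS and at most 0.00535 TPM in the other 5 libraries, although all are labelled male. Ddx3y, a Y chromosome gene, was 20.3 and 23.5 TPM in WT LPS, against 32.2 to 56.4 TPM in the other 5 libraries. Eif2s3y, also on the Y chromosome, was 32.8 and 37.2 TPM in WT LPS, against 66.1 to 78.3 TPM in the others. Every comparison with WT LPS carries these differences, and they cannot be told apart from the genotype or LPS there. Macrophage markers were present in all libraries: 7 of 8 listed markers were in the tables, with a summed level from 37308 to 50199 TPM. Lyz2 made up most of that sum, at 28492 to 42151 TPM, while Mertk was the lowest, at 18.2 to 30.2 TPM. Adgre1 was listed under its older name Emr1 at 1111 to 1715 TPM. The typical gene differed by 0.0959 log2 units between KO M0 and WT M0 replicate 2. Between KO M0 and WT M0 replicate 1 it differed by 0.226, close to the 0.221 between the WT M0 replicates.

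Promoters are shown for Mmp14 and Mmp13, the highest members after LPS, and for Timp2, the highest of the Timp genes. Mmp12 is shown too, since its LPS response differed between the genotypes. Each runs from 250 bases before to 50 bases after an annotated start, 5′ to 3′ on the gene's strand, from RefSeq on GRCm38.p6, the assembly on which mm10 is built. Capitals mark the AP-1 motif TGANTCA, bound by Fos and Jun family factors. RefSeq's table had promoters of 7 of the 10 members and none for Mmp2, Mmp9 and Mmp19. The Mmp13 window is chr9:7272264-7272563, plus strand. The Mmp12 window is the more downstream of its annotated starts, chr9:7347124-7347423, plus strand. The Mmp14 window is chr14:54431348-54431647, plus strand, and the Timp2 window is chr11:118355362-118355661, minus strand.
Mmp13: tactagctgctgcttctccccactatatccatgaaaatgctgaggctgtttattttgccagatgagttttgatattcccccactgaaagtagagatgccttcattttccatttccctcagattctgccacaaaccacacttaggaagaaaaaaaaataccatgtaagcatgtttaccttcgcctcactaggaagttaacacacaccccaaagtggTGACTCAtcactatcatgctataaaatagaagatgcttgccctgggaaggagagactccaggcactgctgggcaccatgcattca
Mmp12: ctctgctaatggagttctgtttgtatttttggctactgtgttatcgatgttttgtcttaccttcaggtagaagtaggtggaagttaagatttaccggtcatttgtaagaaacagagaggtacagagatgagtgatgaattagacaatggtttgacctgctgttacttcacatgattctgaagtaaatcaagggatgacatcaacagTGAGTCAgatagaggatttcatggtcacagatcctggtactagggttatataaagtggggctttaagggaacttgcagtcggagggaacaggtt
Mmp14: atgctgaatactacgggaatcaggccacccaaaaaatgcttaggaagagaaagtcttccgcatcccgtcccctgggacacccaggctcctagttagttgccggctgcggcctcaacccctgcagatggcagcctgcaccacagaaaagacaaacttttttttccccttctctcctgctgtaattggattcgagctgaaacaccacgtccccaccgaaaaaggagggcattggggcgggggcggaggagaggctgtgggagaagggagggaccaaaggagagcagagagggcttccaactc
Timp2: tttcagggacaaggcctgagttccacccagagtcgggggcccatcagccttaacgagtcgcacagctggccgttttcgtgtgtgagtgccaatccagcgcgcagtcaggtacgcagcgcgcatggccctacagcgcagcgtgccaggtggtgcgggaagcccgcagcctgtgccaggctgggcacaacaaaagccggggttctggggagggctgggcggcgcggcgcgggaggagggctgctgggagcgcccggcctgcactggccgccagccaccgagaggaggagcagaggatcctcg
The Mmp13 window held the AP-1 motif from base -35 relative to the start, as TGACTCA, and the Mmp12 window from base -44, as TGAGTCA. Both read as matches on either strand, since the motif is its own reverse complement. The motif was in 7.81% of 32851 windows of this length. The windows of Mmp8, Mmp14, Timp1, Timp2, Timp3 and the upstream start of Mmp12 did not hold these letters. The NF-kappaB consensus, present in 4.51% of windows, was in none of the members' windows, and TATAAA, present in 13.6%, was in those of Mmp13, from base -16, Mmp12, from base 5 after the start, and Mmp8, on the other strand. GC content was 43.7% in the Mmp13 window, 40.7% in the downstream Mmp12 window, 56.0% in the Mmp14 window and 68.7% in the Timp2 window. Motif matches are letters in a window, and no binding was measured.

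LPS raised most of the protease genes and lowered the main inhibitor gene in both genotypes. Summed over the 7 Mmp genes, transcripts stood at 2148 and 2002 TPM in KO LPS and 2543 and 2161 TPM in WT LPS, against 537 TPM in KO M0 and 532 and 527 TPM in WT M0. The 3 Timp genes summed to 66.8 and 62.0 TPM in KO LPS and 64.5 and 87.2 TPM in WT LPS, against 443 TPM in KO M0 and 378 and 472 TPM in WT M0. Libraries with and without LPS did not overlap in either sum. The ratio of protease to inhibitor transcripts was 32.2 and 32.3 in KO LPS and 39.4 and 24.8 in WT LPS, against 1.21 in KO M0 and 1.41 and 1.12 in WT M0. Under LPS the KO values of this ratio lay between the WT values. These sums are of transcripts and say nothing of active enzyme.

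**Figure D1:**
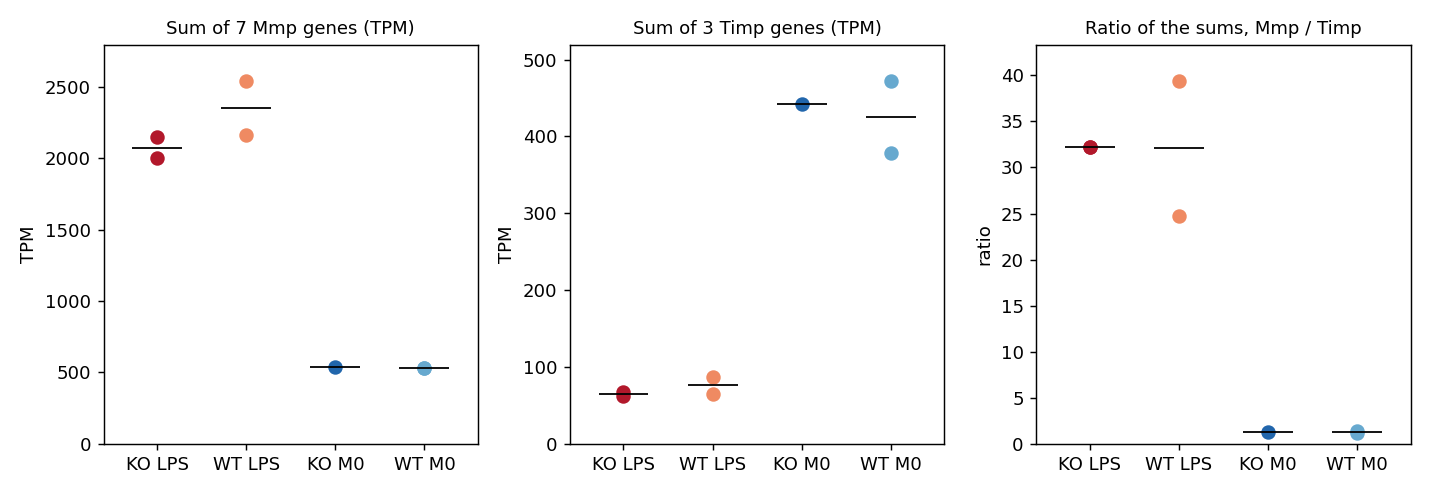
Summed transcript level of the 7 Mmp genes, of the 3 Timp genes, both in TPM, and the ratio of the sums, with a point per library and a bar at the group mean. The 4 LPS libraries have ratios from 24.8 to 39.4 and the 3 untreated ones from 1.12 to 1.41.

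Mmp14 was the highest of the Mmp genes and Timp2 the highest of the Timp genes in every library. Mmp14, a membrane-anchored protease that cleaves collagen and activates the Mmp2 precursor, held 73.4% and 67.6% of the Mmp sum in KO LPS and 61.5% and 63.8% in WT LPS, against 44.3% in KO M0 and 52.2% and 43.9% in WT M0. Timp2, which inhibits MMPs and, bound to Mmp14, also helps it to activate the Mmp2 precursor, held 87.5% and 83.5% of the Timp sum in KO LPS, 74.4% and 57.3% in WT LPS, 96.8% in KO M0 and 93.3% and 95.6% in WT M0. Without Mmp14 the ratio of the other 6 Mmp genes to the Timp genes was 8.58 and 10.4 in KO LPS and 15.2 and 8.98 in WT LPS, against 0.676 in KO M0 and 0.673 and 0.627 in WT M0. In the order of group means, Mmp14 and then Mmp13 led in KO LPS and in WT LPS, while Timp2 and then Mmp14 led in KO M0 and in WT M0, with no overlap between these neighbours in the groups that have replicates. Lower in the order, neighbours overlapped: Mmp9 with Mmp12 and Timp2 with Mmp8 in KO LPS, Mmp8 with Mmp9 and Timp1 with Mmp19 in WT LPS, and Mmp19 with Mmp12, Mmp9 with Mmp13 and Timp1 with Mmp8 in WT M0.

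In KO LPS vs KO M0, 5 of 10 members rose and 3 fell, against a background of 38.1% of all 11096 genes called, 13.8% higher and 24.3% lower. In WT LPS vs WT M0, 6 rose and 3 fell, against 44.6%, of which 15% higher and 29.6% lower. Timp3 is among those that fell, and since it entered only through its untreated level it had to differ. Without it, 2 of 9 fell in each genotype. Since the members were chosen with earlier results of these data known, their counts beside those of all genes are a description and not a test. The members' median log2 fold change was 0.30 in knockout and 0.81 in wild-type cells (0.72 and 0.93 without Timp3), where the median of all genes was -0.24 and -0.21. Scaling by median ratios raised the median of all genes by 0.24 in knockout and by 0.22 in wild-type cells, and no called member changed direction with it. The split of all called genes then was 2114 higher and 1838 lower in knockout (1533 and 2700 without it) and 2490 higher and 2272 lower in wild-type cells (1665 and 3284 without it). With a single KO M0 library, its spread had to be taken from the other groups. Without both WT LPS libraries the knockout counts were again 5 and 3.

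**Figure D2:**
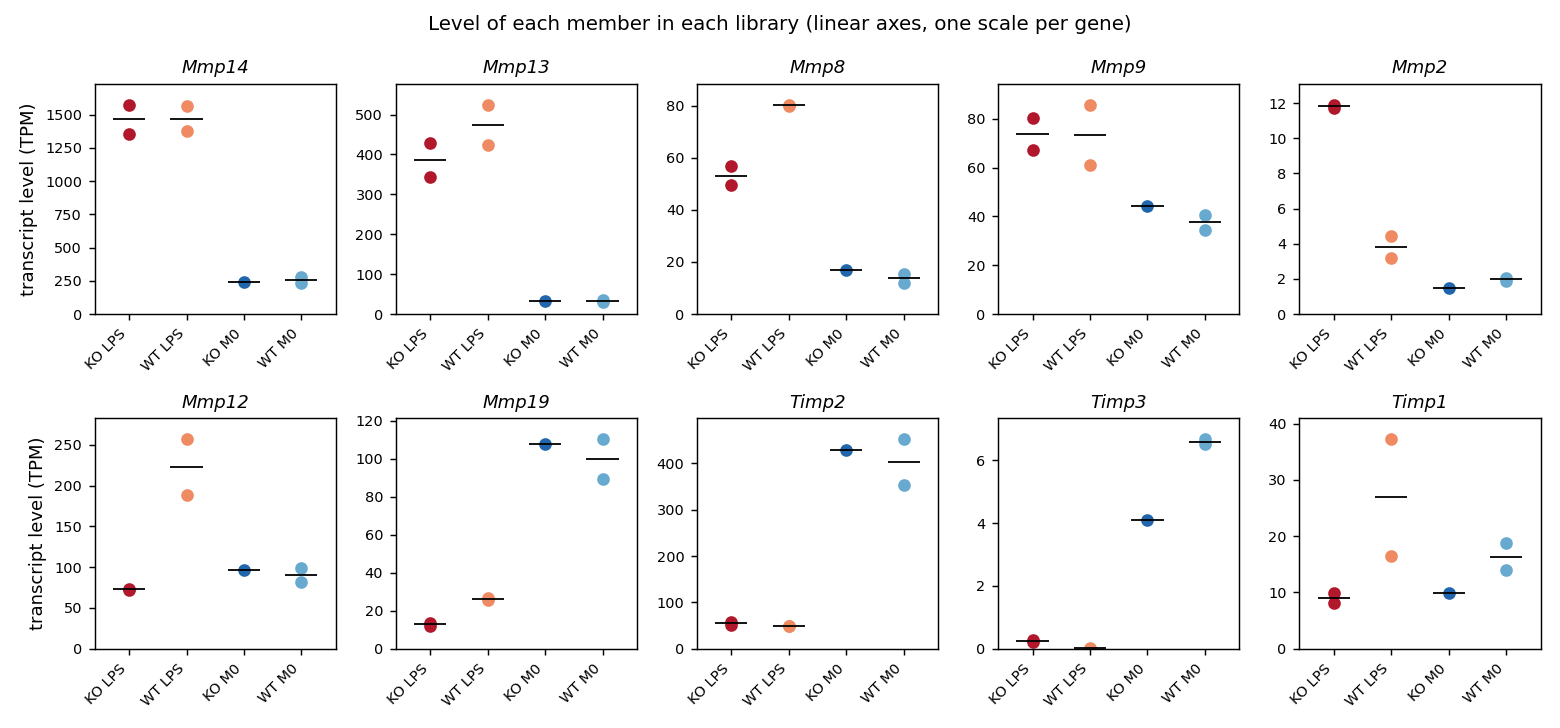
Transcript level in TPM of each of the 10 genes in each library, on linear axes with a scale per gene, with a point per library and a bar at the group mean. Mmp14, Mmp13, Mmp8, Mmp9 and Mmp2 are higher in every LPS library than in every untreated one. Timp2, Timp3 and Mmp19 are lower there, and Mmp12 is raised in the WT LPS libraries.

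Among the collagenases, which cut intact fibrillar collagen, Mmp13 and Mmp8 rose. Mmp13 was 343 and 428 TPM in KO LPS and 525 and 425 TPM in WT LPS, against 32.3 TPM in KO M0 and 29.2 and 35.2 TPM in WT M0. All LPS libraries were above all untreated ones, by 11.9 times in knockout and 14.8 times in wild-type means. Mmp13 gained 3.53 log2 units (SE 0.22, adjusted p 1.6e-06) in knockout and 3.84 (SE 0.18, adjusted p 1.4e-07) in wild-type cells, the largest rise of a member in each genotype. Mmp8, also known as neutrophil collagenase, was 49.4 and 56.7 TPM in KO LPS and 79.9 and 80.4 TPM in WT LPS, against 17.01 TPM in KO M0 and 11.97 and 15.42 TPM in WT M0. Its log2 rise was 1.58 (SE 0.22, adjusted p 0.00028) in knockout and 2.48 (SE 0.18, adjusted p 2.3e-06) in wild-type cells. Of the 10 listed neutrophil markers 9 were in the tables and 2 were tested, S100a8 and Camp, and the list's sum was 106 to 161 TPM in KO LPS and 208 to 333 TPM in WT LPS, against 5.01 TPM in KO M0 and 7.97 to 8.48 TPM in WT M0. S100a8 and Camp made up nearly all of that sum. Ngp, Ltf, Elane, Mpo, Retnlg and Cxcr2 were at most 0.208 TPM in any library. S100a9 was 0.845 TPM in WT LPS replicate 2 and listed at 0 in every other library. Fewer cells of a type and less RNA per cell cannot be told apart in these bulk samples.

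Mmp14 was 1576 and 1354 TPM in KO LPS and 1564 and 1378 TPM in WT LPS, against 238 TPM in KO M0 and 278 and 231 TPM in WT M0. The genotypes overlapped under LPS, and no LPS library came near an untreated one. Its log2 fold change with LPS was 2.61 (SE 0.20, adjusted p 5.3e-06) in knockout and 2.53 (SE 0.16, adjusted p 1.1e-06) in wild-type cells. Timp2 moved the other way, at 58.4 and 51.8 TPM in KO LPS and 47.99 and 49.98 TPM in WT LPS, against 429 TPM in KO M0 and 353 and 452 TPM in WT M0. It fell by 2.94 (SE 0.21, adjusted p 3.0e-06) in knockout and by 3.00 (SE 0.17, adjusted p 4.6e-07) in wild-type cells on the log2 scale, or to 0.129 and 0.122 of the untreated means. The ratio of Mmp14 to Timp2 was 27.0 and 26.1 in KO LPS and 32.6 and 27.6 in WT LPS. Without LPS the ratio was 0.555 in KO M0 and 0.787 and 0.512 in WT M0. Timp2 was thus the higher of the pair in every untreated library and Mmp14 in every LPS library. Cep295nl overlaps Timp2 on the same strand and no level is given for it, so reads of the overlap cannot be told apart.

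The gelatinases, which digest denatured and basement membrane collagen, rose by less or from low levels. Mmp9 was 80.17 and 67.03 TPM in KO LPS and 85.8 and 61.0 TPM in WT LPS, against 44.2 TPM in KO M0 and 40.6 and 34.5 TPM in WT M0. Its log2 fold change was 0.72 (SE 0.24, adjusted p 0.041) in knockout and 0.93 (SE 0.20, adjusted p 0.0035) in wild-type cells. The knockout call was lost without KO LPS replicate 1 (adjusted p 0.139) and without WT M0 replicate 1 (0.0510), and when low genes were kept both calls were lost (0.224 in knockout and 0.0829 in wild-type cells). Mmp2, the substrate of Mmp14, was 11.9 and 11.7 TPM in KO LPS and 4.43 and 3.19 TPM in WT LPS, against 1.47 TPM in KO M0 and 2.06 and 1.87 TPM in WT M0. The rise was 2.38 (SE 0.26, adjusted p 5.8e-05) in knockout and 0.69 (SE 0.21, adjusted p 0.024) in wild-type cells. Its wild-type call was lost without WT LPS replicate 1, either WT M0 library or the filter on low values (adjusted p up to 0.16).

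Mmp19, Timp3 and Timp1 did not follow the induced proteases. Mmp19, a secreted MMP of basement membrane substrates, was 13.6 and 12.2 TPM in KO LPS and 26.5 and 25.7 TPM in WT LPS, against 108 TPM in KO M0 and 89.5 and 110.3 TPM in WT M0. It fell by 2.97 (SE 0.21, adjusted p 3.1e-06) in knockout and by 1.89 (SE 0.17, adjusted p 1.1e-05) in wild-type cells on the log2 scale. Tmem198b, which overlaps Mmp19 on the opposite strand, fell by 1.93 in knockout (SE 0.27) and by 1.86 in wild-type cells (SE 0.22), and since the sources used here do not say whether reads were counted by strand, reads of the overlap cannot be told apart.

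Timp3, a matrix-bound inhibitor that also blocks Adam17, was 0.209 and 0.283 TPM in KO LPS, listed at 0 and 0.0294 TPM in WT LPS, 4.11 TPM in KO M0 and 6.53 and 6.67 TPM in WT M0. All untreated libraries were above all LPS ones, as a description only, since that level brought it past the filter. Its log2 differences depend on the pseudocount. They were -2.04 in knockout and -2.91 in wild-type cells with 1 TPM, and -3.61 and -5.88 with 0.1 TPM. Syn3, which overlaps Timp3 on the opposite strand, was 0.472 and 0.555 TPM in KO LPS and 0.600 and 0.474 TPM in WT LPS. Without LPS Syn3 was 0.702 TPM in KO M0 and 0.713 and 0.800 TPM in WT M0. All 12 listed stromal, fibroblast and osteoblast markers were in the tables, and their sum was 35.3 and 33.0 TPM in KO LPS and 24.8 and 26.8 TPM in WT LPS, against 43.0 TPM in KO M0 and 59.2 and 77.7 TPM in WT M0. Pdgfrb, a growth factor receptor of mural cells and fibroblasts, went against the sum of the rest of the list. It was 27.7 and 19.9 TPM in KO LPS and 18.2 and 21.2 TPM in WT LPS, against 1.93 TPM in KO M0 and 1.81 and 2.29 TPM in WT M0. Within the rest not every gene fell: Lum was 0.132 and 0.0663 TPM in WT LPS, against 0 and 0.0546 TPM in WT M0. The other 11 genes summed to 7.61 and 13.1 TPM in KO LPS and 6.62 and 5.62 TPM in WT LPS, against 41.0 TPM in KO M0 and 57.4 and 75.4 TPM in WT M0. Col1a1 was 1.18 and 1.56 TPM in KO LPS, listed at 0 in both WT LPS libraries, 10.4 TPM in KO M0 and 13.2 and 18.6 TPM in WT M0, and 6 of the 12 genes, Col1a2, Col3a1, Bgn and Sparc among them, were listed at 0 in each WT LPS library. The part of these markers in the Timp3 difference was not tested. Timp1, which also binds the Mmp9 precursor, was 8.13 and 9.95 TPM in KO LPS and 16.5 and 37.2 TPM in WT LPS, against 9.90 TPM in KO M0 and 18.7 and 14.0 TPM in WT M0. It passed the LPS test in neither genotype, with log2 fold changes of -0.12 (SE 0.39, adjusted p 0.83) in knockout and 0.59 (SE 0.32, adjusted p 0.16) in wild-type cells. The WT LPS replicates differed by 1.12 log2 units, the widest replicate gap of any member, and without WT LPS replicate 1 the wild-type rise was 1.15 (adjusted p 0.0077).

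**Figure D3:**
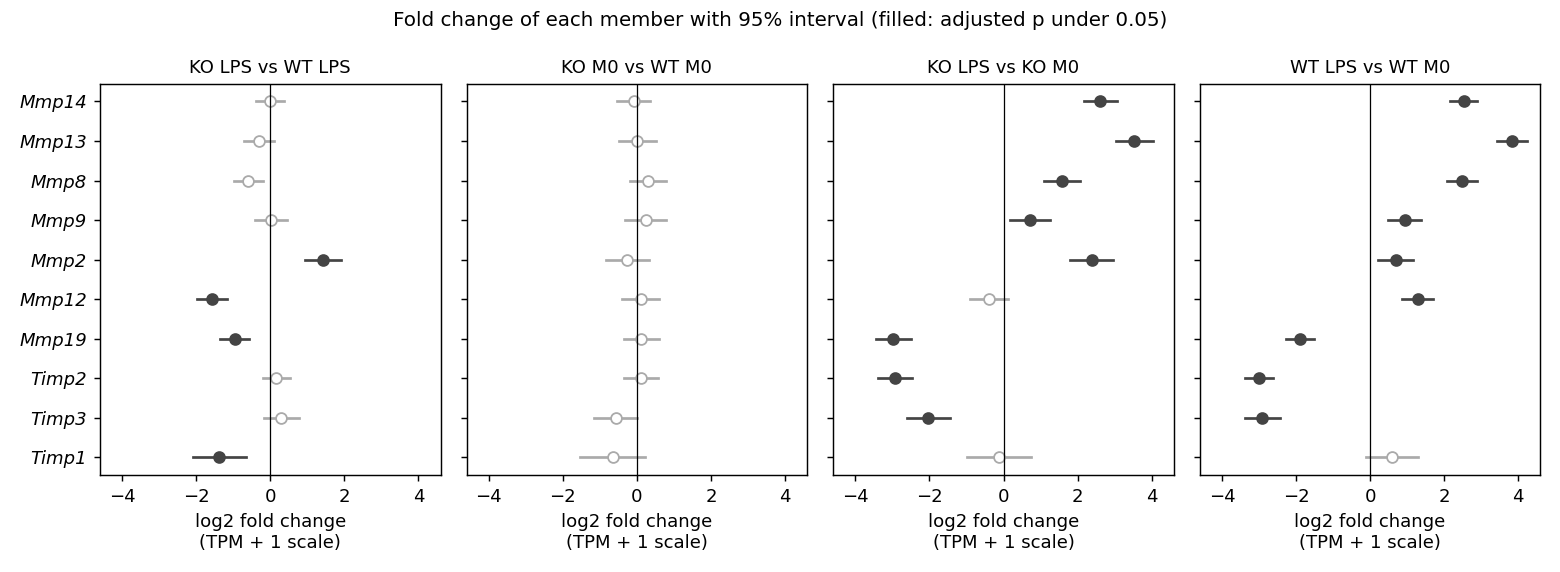
Log2 fold change on the TPM + 1 scale of each of the 10 genes with its 95% interval from limma, a panel per comparison, with filled points at an adjusted p under 0.05. LPS moves Mmp14, Mmp13, Mmp8, Mmp9 and Mmp2 up and Mmp19 and Timp2 down in both genotypes, Timp3 is shown although only its untreated level brought it past the filter, and Mmp2 is higher and Mmp12, Mmp19 and Timp1 are lower in KO LPS than in WT LPS.

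Under LPS, KO libraries held more Mmp2 and less Mmp12, Mmp19 and Timp1 transcript than WT libraries. In KO LPS vs WT LPS, 1 of 10 members was higher and 3 were lower, against a background of 7.16% of 11096 genes called in either direction, 4.59% higher and 2.58% lower. The median of the members was -0.15 (-0.30 without Timp3) and that of all genes 0.03 on the log2 scale. The libraries of the groups did not overlap for these 4 genes, nor for Mmp8, Timp2 and Timp3, which did not pass. Of all 11096 genes, 49.7% did not overlap either. These member counts too are a description, given how the members were chosen. When all 23337 genes were tested, low ones included, 20 genes were called higher and 13 lower, and none of the 4 members passed (adjusted p 0.126 to 0.426). The LPS response itself differed between the genotypes for 2 members, 1 higher and 1 lower in knockout cells, where 1.37% of all genes passed, 0.847% higher and 0.523% lower.

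Mmp12, macrophage elastase, which degrades elastin, was 73.9 and 72.3 TPM in KO LPS, against 257 and 188 TPM in WT LPS, and 96.5 TPM in KO M0, against 81.4 and 98.8 TPM in WT M0. Only the WT LPS libraries stood out, above all 5 others. LPS raised it by 1.28 (SE 0.19, adjusted p 0.00029) in wild-type cells, whereas in knockout cells the change was -0.40 (SE 0.23, adjusted p 0.20) and both LPS libraries lay below KO M0. The mean in KO LPS was 0.329 of that in WT LPS, and the LPS responses differed by -1.68 (SE 0.29, adjusted p 0.024). That difference was no longer called without KO LPS replicate 1 (adjusted p 0.0541) or 2 (0.0602), WT LPS replicate 1 (0.0583) or WT M0 replicate 1 (0.115), with median-ratio scaling (0.0591) or when low genes were kept (0.264). GENCODE M21 places Mmp1b across part of Mmp12 on the opposite strand, and Mmp1b was at most 0.346 TPM in any library.

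Mmp2 was 3.10 times as high in KO LPS as in WT LPS (log2 fold change 1.42, SE 0.21, adjusted p 0.0027). Its LPS responses differed by 1.69 (SE 0.34, adjusted p 0.044), a call that was kept only without WT LPS replicate 1 (adjusted p 0.0403) and with the replicate block among 13 alternatives, the other scalings and filters included. Mmp2 is also made by fibroblasts and endothelial cells. The 11 stromal markers other than Pdgfrb summed to 7.61 and 13.1 TPM in KO LPS, against 6.62 and 5.62 TPM in WT LPS. All 5 listed endothelial markers were in the tables, and they summed to 40.6 and 41.6 TPM in KO LPS and 13.7 and 7.80 TPM in WT LPS, against 9.78 TPM in KO M0 and 7.17 and 8.44 TPM in WT M0. Nearly all of the endothelial sum was Kdr, a receptor for VEGF, at 37.9 and 38.9 TPM in KO LPS, against 12.7 and 7.30 TPM in WT LPS (log2 fold change 1.89, SE 0.24, adjusted p 0.00088). Pecam1 was 2.12 and 2.30 TPM in KO LPS, against 0.585 and 0.333 TPM in WT LPS. Cdh5, also on the list, was 0.634 and 0.423 TPM in KO LPS and 0.433 and 0.121 TPM in WT LPS. Its mean was higher in KO LPS, but the libraries of the groups overlapped. Without LPS Cdh5 was higher, at 1.68 TPM in KO M0 and 1.22 and 2.38 TPM in WT M0. Tek and Emcn were listed at 0 in both KO LPS libraries. The part of these markers in the Mmp2 difference was not tested.

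Mmp19 was lower in KO LPS (log2 fold change -0.96, SE 0.17, adjusted p 0.0071), at 0.495 of the WT LPS mean, while the difference between its LPS responses was -1.08 (SE 0.27, adjusted p 0.10) and did not pass. Without KO LPS replicate 2 its genotype call was lost (adjusted p 0.0574). Overlapping Tmem198b did not follow it here, with 5.30 and 5.14 TPM in KO LPS against 4.44 and 7.07 TPM in WT LPS (log2 fold change -0.09, SE 0.22). Timp1 was lower by a log2 fold change of -1.37 (SE 0.32, adjusted p 0.028), and this call was lost without WT LPS replicate 2 (-0.81, adjusted p 0.165), without KO LPS replicate 1 (0.120) or 2 (0.0803) and without WT M0 replicate 1 (0.0583) or 2 (0.0547). Timp1 is on the X chromosome, and the WT LPS libraries are those with Xist transcript, whose part in the Timp1 difference was not tested. It also overlaps Syn1 on the opposite strand, and Syn1 was 6.44 and 5.41 TPM in KO LPS and 5.39 and 6.43 TPM in WT LPS, against 25.2 TPM in KO M0 and 23.0 and 27.6 TPM in WT M0. Its log2 fold change with LPS was -1.93 in each genotype, and without strand its reads and those of Timp1 cannot be told apart where they overlap.

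The other members did not pass between the genotypes under LPS. Mmp14 differed by -0.01 with a 95% interval from -0.37 to 0.36, Mmp9 by 0.02 (-0.43 to 0.46), Timp2 by 0.16 (-0.21 to 0.54) and Mmp13 by -0.30 (-0.70 to 0.11). The directions of Mmp14 and Mmp9 depend on the scaling. Mmp8 was lower by -0.59 (-0.99 to -0.19, adjusted p 0.085), and Timp3 differed by 0.30 (-0.18 to 0.77), or by 1.60 with a pseudocount of 0.1 TPM, at 0.283 TPM or less in all 4 libraries. Without LPS, 0 of 10 members passed in KO M0 vs WT M0, where 0.00901% of all genes, 1 gene, was called, and 0 members and 154 of all genes had an unadjusted p under 0.05. Nor did a member pass under any alternative. Intervals were wide with a single KO M0 library: Timp1 was 9.90 TPM in KO M0, against 18.7 and 14.0 TPM in WT M0 (log2 fold change -0.66, -1.52 to 0.21), and Timp3 differed by -0.57 (-1.15 to 0.01).

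Mmp13, Mmp12 and Mmp8 lie in the Mmp cluster of chromosome 9, which holds 10 Mmp genes between 7272514 and 7699585 (GRCm38). The other members lie apart: Mmp9 on chromosome 2 (164940326 to 164955850), Mmp2 on chromosome 8 (92827290 to 92853421), Mmp14 on chromosome 14 (54431598 to 54442456), Mmp19 and Timp3 on chromosome 10 (128790910 to 128800827 and 86300412 to 86349505), Timp2 on chromosome 11 (118301061 to 118355411) and Timp1 on chromosome X (20870166 to 20874737). Within the cluster, neighbours differed in level and in response. Mmp13 (7272514 to 7283333) and Mmp12 (7344397 to 7360461) are next to each other in the order of Mmp genes, and Mmp13 rose with LPS in both genotypes, whereas Mmp12 passed in wild-type cells alone. Mmp8 (7558429 to 7568486) is followed by Mmp27, at 11.7 and 12.3 TPM in KO LPS and 13.5 and 15.3 TPM in WT LPS, against 17.3 TPM in KO M0 and 14.0 and 18.6 TPM in WT M0, which passed in no comparison. Mmp3, or stromelysin, ranged from 0.189 to 3.47 TPM, Mmp1b was at most 0.346 TPM and Mmp10 at most 0.499 TPM, and Mmp1a, Mmp20 and Mmp7 were listed at 0 in every library.

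**Figure D4:**
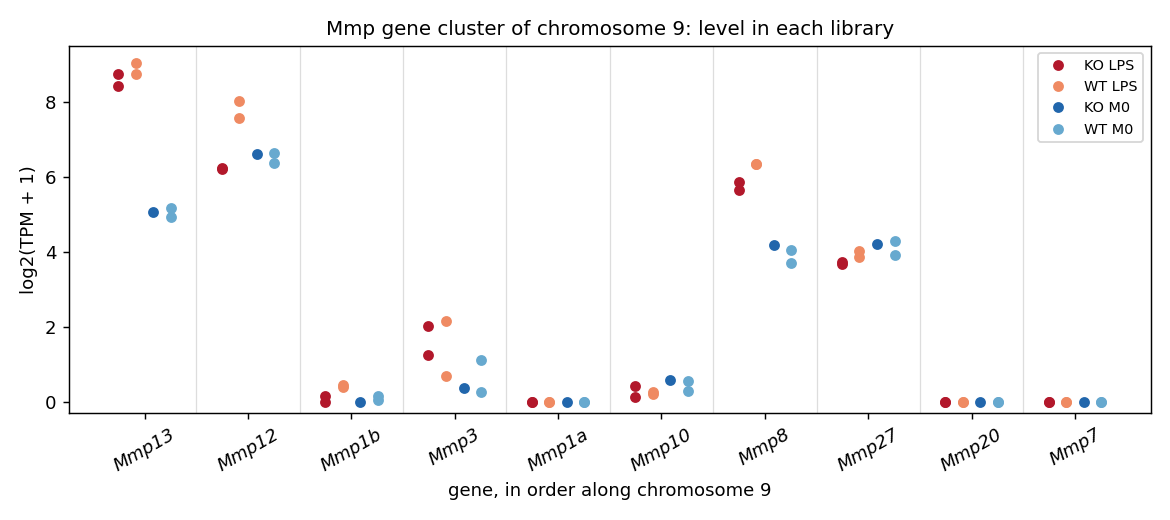
Level, as log2(TPM + 1), of the 10 Mmp genes of the chromosome 9 cluster in their order along the chromosome, with a point per library and a colour per group. Mmp13 and Mmp8 are higher in all LPS libraries, Mmp12 in the WT LPS libraries, and Mmp27 sits between 11.7 and 18.6 TPM in all 7.

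Of the 17 other Mmp and Timp genes, 3 were tested. Mmp25, a membrane-anchored MMP of leukocytes, was 8.03 and 9.43 TPM in KO LPS and 3.70 and 3.77 TPM in WT LPS, against 1.43 TPM in KO M0 and 1.13 and 0.737 TPM in WT M0. It rose with LPS in knockout (log2 fold change 2.00, SE 0.26, adjusted p 0.00021) and wild-type cells (1.30, SE 0.22, adjusted p 0.00074) and was higher in KO LPS than in WT LPS (1.04, SE 0.22, adjusted p 0.017). Its WT M0 mean of 0.934 TPM is itself under the filter's minimum. Mmp3 and Mmp27 passed in none of these comparisons.

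Genes that activate, bind or clear MMPs moved in both directions. Of the 11 tested of 17 listed, 3 rose and 4 fell in KO LPS vs KO M0 (median log2 fold change -0.33), 3 rose and 6 fell in WT LPS vs WT M0 (-0.57), and 2 were higher and 2 lower in KO LPS vs WT LPS (0.15). The shares called were 63.6%, 81.8% and 36.4%, beside 38.1%, 44.6% and 7.16% of all genes. Lcn2, which in humans binds Mmp9, was 1594 and 1870 TPM in KO LPS, against 545 and 643 TPM in WT LPS (1.54, SE 0.17, adjusted p 0.00052). Serpinb2, an inhibitor of plasminogen activators, was lower in KO LPS (-0.97, SE 0.18, adjusted p 0.0075). LPS raised Lcn2 by 9.64 (SE 0.21, adjusted p 4.0e-09) in knockout and 7.86 (SE 0.17, adjusted p 2.1e-09) in wild-type cells, and the difference of 1.77 between these responses passed (SE 0.28, adjusted p 0.016). Serpinb2 rose by 6.94 (SE 0.22) in knockout and 7.89 (SE 0.18) in wild-type cells. The difference of -0.94 between its responses did not pass (SE 0.28, adjusted p 0.18). With LPS, Lrp1, which takes up proteases bound to their inhibitors, had log2 fold changes of -1.59 in knockout (SE 0.20, adjusted p 0.00015) and -1.43 in wild-type cells (SE 0.16, adjusted p 5.6e-05). Plau, the urokinase that makes plasmin, had -1.65 in knockout (SE 0.26, adjusted p 0.00065) and -1.93 in wild-type cells (SE 0.21, adjusted p 4.4e-05).

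Of 9 tested Adam and Adamts genes, 2 rose and 1 fell in KO LPS vs KO M0, 3 rose and 3 fell in WT LPS vs WT M0, and 0 were higher and 2 lower in KO LPS vs WT LPS. The shares called were 33.3%, 66.7% and 22.2%, the knockout share being below the 38.1% of all genes. Adam8, a membrane protease of leukocytes, was 251 and 240 TPM in KO LPS and 430 and 379 TPM in WT LPS, against 1245 TPM in KO M0 and 1321 and 1304 TPM in WT M0, and passed in all 3 comparisons. Adam9 (0.72 in knockout, 0.92 in wild type) and the TNF-releasing Adam17 (0.53 and 0.62) rose with LPS in both genotypes, Adam15 fell by 0.85 in wild-type cells, and Adam19 was lower in KO LPS than in WT LPS (-1.14, SE 0.23, adjusted p 0.013). Of 6 tested matrix-degrading cathepsins, 0 rose and 5 fell in KO LPS vs KO M0, 0 rose and 2 fell, Ctsb and Ctsd, in WT LPS vs WT M0, and 3 were lower in KO LPS than in WT LPS: Ctsl (-0.97, SE 0.15, adjusted p 0.0028), Ctss (-0.75, SE 0.15, adjusted p 0.016) and Ctsk (-0.95, SE 0.24, adjusted p 0.043). The shares of cathepsins called were 83.3%, 33.3% and 50% in these comparisons, the wild-type share being below the 44.6% of all genes. Ctsl, which degrades elastin and collagen, was 769 and 783 TPM in KO LPS, against 1591 and 1452 TPM in WT LPS.

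Of 12 tested matrix genes, some had a mean under 1 TPM in a compared group and so entered through another group where they were higher. Of those left, 3 of 10 rose and 4 fell in KO LPS vs KO M0, 2 of 6 rose and 1 fell in WT LPS vs WT M0, and 2 of 7 were higher and 0 lower in KO LPS vs WT LPS. With all 12, the counts were 4 and 5, 2 and 5, and 7 and 0, so that 75%, 58.3% and 58.3% were called. Of all 11096 genes, 38.1%, 44.6% and 7.16% were called in these comparisons. In wild-type cells the 2 of 6 that rose and the 1 that fell are together near the share of all genes. Vcan, the proteoglycan versican, was 163 and 229 TPM in KO LPS and 154 and 167 TPM in WT LPS, against 8.90 TPM in KO M0 and 7.19 and 7.20 TPM in WT M0. Col4a2, a chain of basement membrane collagen, was 12.7 and 10.2 TPM in KO LPS, against 4.46 and 4.89 TPM in WT LPS (1.12, SE 0.22, adjusted p 0.011). Col1a1, Col1a2, Sparc and Bgn, which are on the stromal list too, were at most 1.64 TPM in KO LPS and listed at 0 in WT LPS, and are given by level only. Eln, the elastin gene, was listed at 0 in every library.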

How the data were processed

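Each library came as the authors' deposited TPM for 23337 genes, with a sum of 1000000. Per the submitters' processing notes reads were set on mm10. How reads were aligned, assigned and counted by strand is not given in the sources used, so overlapping genes are uncertain. The members and lists were chosen with earlier results of these data known.

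Group means were fitted over all 7 libraries on log2(TPM + 1) with limma 3.58.1 in R 4.3.3 (trended variance moderation, residual degrees of freedom 3, prior degrees 7.30), for genes with a mean of at least 1 TPM (11096), with Benjamini-Hochberg adjustment and a threshold of 0.05. The 5 comparisons were 4 between groups and the difference between LPS responses. The steps were tested on simulated data. All members were named, and, from each list of related genes, up to 3 called genes with the smallest adjusted p per comparison; 1 gene that this rule names is not reported here. Other genes given by level (Col3a1, Bgn, Pdgfrb, Lum, Kdr, Pecam1, Cdh5, Tek, Emcn, Syn1, Syn3, Tmem198b, S100a8, S100a9, Camp, Emr1, Lyz2, Mertk, Ddx3y, Eif2s3y, Eln and the chromosome 9 cluster) were chosen after their values were seen. Coordinates and promoters are from RefSeq on GRCm38.p6 and overlaps from GENCODE M21. Alternatives were other scalings, pseudocount, filters, threshold, samples and the replicate block. Figures used matplotlib 3.10.9.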

Additional observations from a re-analysis of the deposited data

Results flagged for a closer look

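The LPS response of Mmp2 differed between the genotypes, by a log2 difference of 1.69 (KO minus WT), and that of Mmp12 by -1.68, each by limma's test of the difference itself (adjusted p 0.044 and 0.024). Of all genes, 1.37% passed that test. Neither call held with median-ratio scaling, without the filter on low values or at a threshold of 0.01. Both rest on a single KO M0 library and on the WT LPS libraries that hold Xist transcript.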

How the results depend on the processing

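The LPS calls of Mmp8, Mmp13, Mmp14, Mmp19 and Timp2 held in both genotypes under every alternative that gave a value, as did that of Mmp12 in wild-type cells. Timp3 could not be fitted at a minimum mean of 5 TPM, nor KO M0 comparisons without that library. With no filter, 0 members were higher and 0 lower in KO LPS vs WT LPS, and leaving out a library gave 1 to 3 lower. For the difference between LPS responses, no member was higher (0) with median-ratio scaling, quantile normalization, a pseudocount of 0.1, no filter, a minimum of 5 TPM or a threshold of 0.01, and none lower (0) with median-ratio scaling, no filter or 0.01. Leaving out a library gave 0 to 1 in each direction. The cause of these losses was not tested. Uncalled values changed sign with median-ratio scaling and quantile normalization for Mmp9 in KO LPS vs WT LPS (-0.015 and -0.032), Mmp13 in KO M0 vs WT M0 (-0.035 and -0.031) and Timp1 in KO LPS vs KO M0 (0.11 and 0.19), and with quantile normalization for Mmp14 in KO LPS vs WT LPS (0.038). Leaving out a library moved uncalled values across 0: in KO LPS vs WT LPS Mmp9 from -0.22 to 0.26 and Mmp14 from -0.12 to 0.10; in KO M0 vs WT M0 Mmp12 from -0.034 to 0.24, Mmp13 from -0.12 to 0.14, Mmp14 from -0.22 to 0.041, Mmp19 from -0.030 to 0.27 and Timp2 from -0.075 to 0.28; in KO LPS vs KO M0 Timp1 from -0.26 to 0.0058; and in the difference between responses Mmp9 from -0.46 to 0.027, Mmp14 from -0.048 to 0.22 and Timp2 from -0.11 to 0.24.

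Same-numbered libraries deviated together with correlations of 0.18, 0.30 and 0.080, all positive. The main fit did not pair samples by number, and whether same-numbered libraries share an effect was not tested. With the replicate block, more of all genes passed in every comparison but KO M0 vs WT M0. In KO LPS vs WT LPS, 709 genes were then higher and 400 lower, against 509 and 286 in the main fit. The counts of members were unchanged with the block in all comparisons but KO LPS vs WT LPS, where Mmp8 also passed (adjusted p 0.039).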
